A study of Mus musculus with 22 samples.

Results

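Interferon-stimulated genes are transcribed when a cell senses an interferon, and 52 of them were followed here in regulatory T cells (Tregs) from mouse visceral fat. They were chosen by name, as 52 of the 55011 gene symbols of the study's count table, and each was found there once. By role they include 4 Ifit and 2 Mx genes, from families of antiviral proteins that act on viral RNA or capsids. The gene annotation lists Mx2 as a polymorphic pseudogene, and no protein was measured. A further 5 are Oas genes (synthases of the second messenger that activates RNase L, and relatives). There are 6 Gbp genes and 5 immunity-related GTPases (Igtp, Irgm1, Irgm2, Iigp1 and Ifi47). The latter act with the Gbp proteins at the vacuoles of intracellular pathogens. The rest are 6 nucleic acid sensors and binders, 6 signalling or transcription genes and 6 genes of ISG15, ubiquitin and ADP-ribose transfer. They also include 4 membrane proteins and 8 other effectors.

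Type I interferons bind the receptor made of IFNAR1 and IFNAR2, and the kinases JAK1 and TYK2 then act on STAT proteins, which join IRF9 in a complex that binds interferon-stimulated response elements. Interferon-gamma, which T cells and natural killer cells make, binds its own receptor and acts through gamma-activated sequences. Many genes answer to both routes. The Ifit, Oas and Mx genes are known mainly as type I targets, and the Gbp, Irgm and Igtp genes as strong interferon-gamma targets, so the 11 Ifit, Oas and Mx genes (called the type I class) were set beside the 9 Gbp, Irgm and Igtp genes (the interferon-gamma class).

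The study compared Tregs with and without Bmal1, a transcription factor of the circadian clock whose gene symbol is Arntl, across diets and after cell transfer. All groups, WT included, were male C57BL/6 Foxp3.Cre-YFP animals, in which the Foxp3 locus of Tregs drives Cre and the YFP by which cells were sorted. Cells were taken at ZT0 (lights on), and a library was made from 1000 sorted cells. The lean groups were 18 weeks old and on low-fat diet, 3 WT and 3 KO libraries. The groups on high-fat diet for 4 weeks were also 18 weeks old, and those on it for 16 weeks were 30 weeks old. Each of these had 14 weeks of lean diet first and 3 WT and 3 KO libraries. The transfer groups, with 2 WT and 2 KO libraries, were Tregs recovered from visceral fat 9 weeks after adoptive transfer, from animals 20 weeks old. The labels give neither the host of the transfer nor the part of Bmal1 that was deleted. Age therefore differs together with the 16-week diet, and host, age and sequencing depth differ together with transfer, so that these cannot be told apart. Nothing in the labels says that the libraries of a group came from separate animals, and the p-values here speak to the variation among libraries, which may be technical.

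The 18 diet libraries held 1955940 to 3467019 counts and the 4 transfer libraries 4814337 to 5990319. Levels are counts scaled to library size (CPM, after TMM scaling), and 3 counts, taken as the limit of detection, were worth 0.539 to 1.59 CPM. The summed CPM of 6 Treg markers (Foxp3, Il2ra, Ctla4, Ikzf2, Cd4 and Cd3e) lay between 3820 and 4540 in the diet libraries. In the transfer libraries it lay between 5060 and 5700. Group means of Foxp3 ran from 484 CPM (lean KO) to 657 CPM (transferred WT). Those of Il2ra ran from 360 CPM (16-week WT) to 1740 CPM (transferred KO). Arntl had 54.7 to 107 CPM (median 75.3) in 11 WT libraries and 73.5 to 101 CPM (median 89.4) in 11 KO libraries. A count over the whole gene includes transcripts that lack a deleted exon, so it checks nothing about the labels. Cd8a, 1 of 6 markers of cytotoxic T and natural killer cells, was at 0 in 7 of the 8 groups. Cd8b1 of the same list had counts in every library, up to 37.4 CPM in 4-week WT library 2. Prf1 reached 40.8 CPM in 16-week WT library 3, where the 6 markers had their highest sum, 66.6 CPM. Ncr1, Klrb1c and Gzma had at most 1.79, 3.99 and 16.4 CPM. Red blood cell markers summed to at most 1.13 CPM. Siglech, a marker of plasmacytoid dendritic cells, which are known for making type I interferon, had 24.1 CPM in lean KO library 1 and 16.7 and 24.9 CPM in libraries 2 and 3 of the 4-week WT group, and at most 1.42 CPM in the other libraries. Its part in the results was not tested.

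Promoters are shown first because several members that differed between groups carry a known interferon motif there. RefSeq (GRCm38.p6) gave promoters, from 250 bases before to 50 bases after a start, for 38 of the 52 members. The core of the interferon-stimulated response element, GAAA followed by any 2 bases and GAAA again, and the gamma-activated sequence, TTCNNNGAA, were searched on both strands. The first was present in 21 of the 38 members and in 1131 of all 32851 promoters (3.443%). The second was present in 12 of the 38 members and in 8.298% of all promoters. The response element core was found in 7 of 7 interferon-gamma class members and in 5 of 8 type I class members with a promoter at hand, and the gamma-activated sequence in 4 and in 2 of them. Of the 11 members that rose after 16 weeks of high-fat diet in KO Tregs, 8 had a promoter at hand, and 7 of these held the response element core; Ifi47 held neither motif in its window, and Ddx58, with 1 match, is not printed. The other 6, from 4 roles, and the promoter of Irf1, which has a gamma-activated sequence but no response element core in this window, read as follows, 5′ to 3′ along the gene's own strand, with matches to either motif in capitals.
Oas1a (chr5:120907476-120907775, minus strand): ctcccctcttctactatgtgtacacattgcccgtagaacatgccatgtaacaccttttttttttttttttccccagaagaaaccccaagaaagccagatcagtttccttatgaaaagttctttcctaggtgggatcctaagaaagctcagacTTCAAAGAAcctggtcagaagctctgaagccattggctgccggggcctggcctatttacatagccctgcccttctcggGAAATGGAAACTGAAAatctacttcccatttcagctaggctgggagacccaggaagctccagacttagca
Oas3 (chr5:120777610-120777909, minus strand): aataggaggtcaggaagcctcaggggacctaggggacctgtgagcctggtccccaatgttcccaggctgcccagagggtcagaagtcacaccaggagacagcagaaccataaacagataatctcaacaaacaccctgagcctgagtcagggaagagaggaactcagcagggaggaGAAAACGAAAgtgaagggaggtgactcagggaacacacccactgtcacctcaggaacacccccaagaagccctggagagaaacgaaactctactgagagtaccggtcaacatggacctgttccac
Ifih1 (chr2:62646206-62646505, minus strand): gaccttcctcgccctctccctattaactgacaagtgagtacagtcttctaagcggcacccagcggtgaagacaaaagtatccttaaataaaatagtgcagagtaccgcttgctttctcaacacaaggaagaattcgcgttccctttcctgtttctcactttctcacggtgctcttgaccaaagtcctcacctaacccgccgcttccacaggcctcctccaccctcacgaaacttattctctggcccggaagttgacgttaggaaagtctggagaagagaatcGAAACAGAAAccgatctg
Igtp (chr11:58199306-58199605, plus strand): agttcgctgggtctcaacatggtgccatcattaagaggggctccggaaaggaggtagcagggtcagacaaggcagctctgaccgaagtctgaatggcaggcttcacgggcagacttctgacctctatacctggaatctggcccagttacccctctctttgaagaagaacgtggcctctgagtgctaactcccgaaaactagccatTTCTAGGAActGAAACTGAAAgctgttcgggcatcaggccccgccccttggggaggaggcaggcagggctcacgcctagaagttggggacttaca
Irgm1 (chr11:48871371-48871670, minus strand): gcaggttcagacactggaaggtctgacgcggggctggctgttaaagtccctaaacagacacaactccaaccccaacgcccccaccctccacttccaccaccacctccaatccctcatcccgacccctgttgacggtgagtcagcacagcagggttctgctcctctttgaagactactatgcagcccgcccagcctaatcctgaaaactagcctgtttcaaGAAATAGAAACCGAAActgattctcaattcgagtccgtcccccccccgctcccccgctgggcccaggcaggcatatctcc
Gbp2 (chr3:142620413-142620712, plus strand): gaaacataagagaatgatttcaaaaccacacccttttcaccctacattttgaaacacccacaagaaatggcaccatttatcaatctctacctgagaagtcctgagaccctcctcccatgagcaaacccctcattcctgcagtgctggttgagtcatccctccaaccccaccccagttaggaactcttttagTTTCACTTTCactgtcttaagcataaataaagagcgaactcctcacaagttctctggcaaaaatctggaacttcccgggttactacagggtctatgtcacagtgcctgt
Irf1 (chr11:53769764-53770063, plus strand): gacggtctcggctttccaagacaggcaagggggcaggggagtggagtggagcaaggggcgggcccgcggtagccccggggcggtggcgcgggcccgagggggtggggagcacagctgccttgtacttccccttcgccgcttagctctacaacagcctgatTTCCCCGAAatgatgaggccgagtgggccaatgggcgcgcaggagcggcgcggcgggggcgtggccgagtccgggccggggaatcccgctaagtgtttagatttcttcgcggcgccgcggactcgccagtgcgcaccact
In Oas1a and Irgm1, 2 response element matches overlapped in 1 run of capitals. In Igtp, the gamma-activated sequence and the response element core lay close together, 45 and 34 bases before the start of the gene. In Ifih1 the match lay after the start, by 32 bases. A match describes the letters in the window, not a site in use, and a window without a match says nothing of the factor.

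Per kilobase of exon, the members ranged over more than 3 orders of magnitude in these Tregs. The highest were Ifi27l2a, a mitochondrial protein gene, at 830 CPM per kb averaged over the 22 libraries, and 2 genes of small membrane-anchored proteins, Ly6e at 533 and Ly6a (which encodes the surface antigen Sca-1) at 415. Next were Ifi47 at 117, Igtp at 100 and Bst2 (tetherin, which holds budding virions at the membrane) at 80.9 CPM per kb. Irf1, the transcription factor induced by interferon-gamma, had 68.7 CPM per kb, Gbp7 52.8, Ifi209 52.7 and Ifi35 50.1. Most of the type I class lay low on this scale, with Oas1a at 12.7 and Ifit1 at 6.37 CPM per kb at its top and Oas2 at 0.255 at its bottom. Ifi44 was the lowest of all members at 0.238 CPM per kb. Counts cannot fully separate members from near-identical or overlapping genes. Among these are Ifit3 and Ifit3b, the Oas1a family, the Gbp cluster, and Igtp and Irgm2, which share 162 bases on the same strand. Parp9 and Dtx3l share 458 bases on opposite strands, and the library kit does not mark strand. Those single-gene values are uncertain to that extent.

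Of the 52 members, 48 passed the filter on low counts in the 18 diet libraries, where Oas2, Oasl1, Ifi44 and Ifitm3 did not. In the 4 transfer libraries 45 passed, since Ifit3, Ifit3b and Oasl2 also failed, and in all 22 libraries together 51 passed, all but Oasl1. The highest group mean fell in the 16-week KO group for 32 of the 51 members that passed in all libraries, against 16.9% of all 12523 genes. In 10 members it was in the 4-week WT group (8.67% of all genes). The lowest group mean was in the transferred WT group for 28 members (20.6% of all genes) and in the transferred KO group for 16 (19.4%). The map of all members by library shows these blocks.

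**Figure D1:**
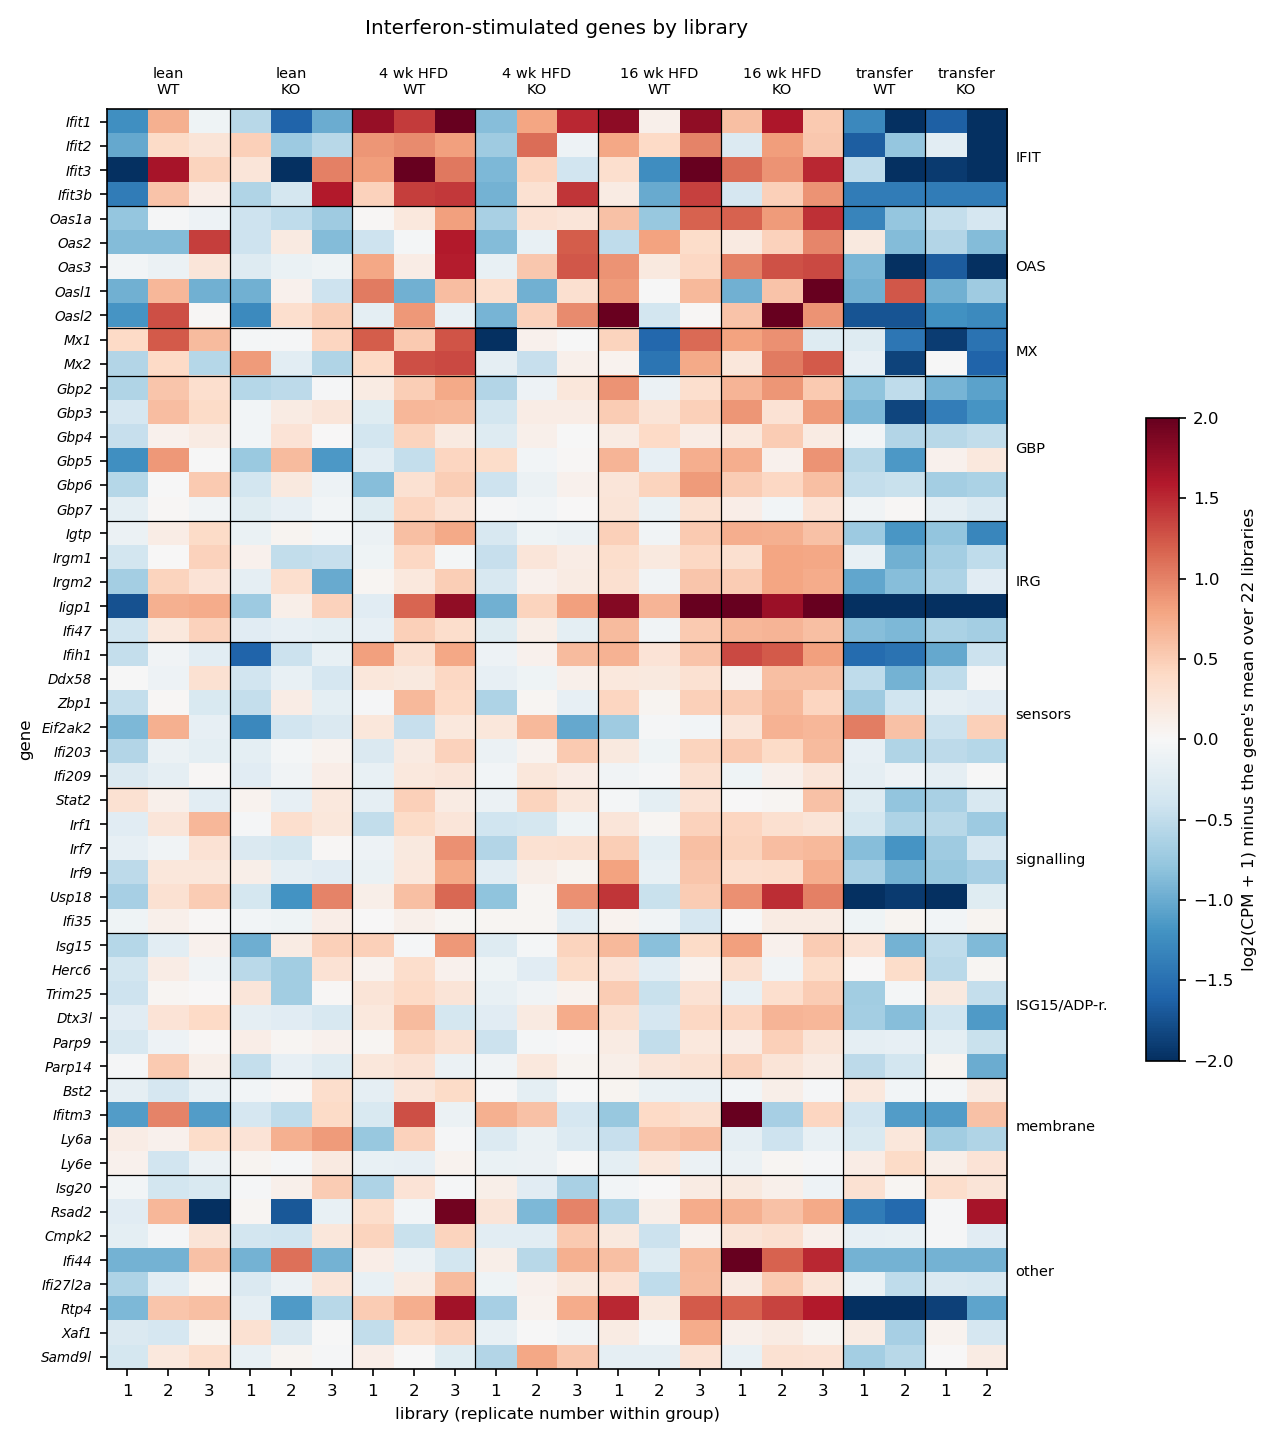
Levels of the 52 members (rows, grouped by role) in 22 libraries (columns, grouped by diet or transfer and genotype), as log2(CPM + 1) minus the mean of the gene over the 22 libraries; the colour scale stops at 2 in either direction. The 16-week KO columns are mostly red and the transfer columns mostly blue, and within a group whole columns differ, as in lean WT library 1.

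The comparison of 16 weeks of high-fat diet with lean diet also sets animals 30 weeks old against animals 18 weeks old. Diet and age cannot be told apart in it. In KO Tregs, 11 of the 48 tested members rose and 1 fell (edgeR quasi-likelihood test, Benjamini-Hochberg adjusted p under 0.05). Over all 11698 genes tested, 5.95% were called, 2.36% higher and 3.59% lower. The members that rose were the RNA sensors Ifih1 (MDA5) and Ddx58 (RIG-I), the synthases Oas1a and Oas3, the GTPases Gbp2, Igtp, Irgm1, Iigp1 and Ifi47, the ADP-ribosyltransferase Parp14, and Rtp4, a receptor transporter gene known to bind viral RNA. The member that fell was Ly6a. In all, 43 of 48 members had a log2 fold change above 0, against 50.1% of all genes, and their median was 0.60 against 0.00. Unadjusted p was under 0.05 for 21 of the 48 members and for 19.9% of all genes. These members were chosen with results of these libraries known, so their direction is a description.

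Ifih1 had 4.38, 11.1 and 13.7 CPM in the 3 lean KO libraries and 39.9, 37.3 and 27.8 CPM in the 3 16-week KO libraries, a log2 fold change of 1.87 ± 0.33 (SE; edgeR adjusted p = 0.00151). Every 16-week library was above every lean one, and the lowest lean value was in library 1. Oas1a had 15.3, 14.3 and 12.3 CPM on lean diet and 48.4, 38.1 and 58.8 CPM after 16 weeks (log2 1.79 ± 0.39 SE; edgeR adjusted p = 0.00881). The lean values lay close together, and the 16-week values were clear of them. Oas3 had 19.7, 21.7 and 22.4 CPM and then 48.8, 59.2 and 60.7 CPM (log2 1.40 ± 0.33 SE; edgeR adjusted p = 0.0143), again with no overlap. Rtp4 had 9.11, 4.23 and 6.85 CPM on lean diet and 24.9, 28.3 and 33.6 CPM after 16 weeks (log2 2.07 ± 0.47 SE; edgeR adjusted p = 0.0123).

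Among the GTPases, Iigp1, which damages the vacuole membrane of Toxoplasma, had 14.2, 26.4 and 33.8 CPM in lean KO and 111, 81.5 and 116 CPM in 16-week KO Tregs (log2 2.07 ± 0.55 SE; edgeR adjusted p = 0.0283). Igtp had 172, 195 and 182 CPM and then 310, 307 and 283 CPM (log2 0.71 ± 0.18 SE; edgeR adjusted p = 0.0251), a smaller change between tight groups. Gbp2 had 60.5, 62.4 and 89.0 CPM and then 146, 167 and 130 CPM (log2 1.06 ± 0.28 SE; edgeR adjusted p = 0.0271). The groups did not overlap in any of these genes. Members shown by library in this comparison were picked by their p-values, and the share of all genes without overlap was not computed. Nothing is therefore drawn from a lack of overlap, here or in what follows. Irgm1 rose by 0.91 ± 0.22 and Ifi47 by 0.85 ± 0.20 on the log2 scale (edgeR adjusted p = 0.0176 and 0.0125). The sensor Ddx58 rose by 0.74 ± 0.15 and Parp14 by 0.60 ± 0.16 (edgeR adjusted p = 0.00643 and 0.031).

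Ly6a went the other way. It had 576, 777 and 860 CPM in lean KO and 420, 358 and 428 CPM in 16-week KO Tregs, and fell by 0.88 on the log2 scale (SE 0.25; edgeR adjusted p = 0.0413). The lowest lean library was still above every 16-week library. Its relative Ly6e had a log2 fold change of -0.11, and the membrane proteins were the 1 role in which none of the 3 tested genes was above 0. In every other role at least 3 in 4 of the tested members were above 0.

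Members that did not pass in the same comparison included Ifit1, whose protein binds RNA lacking the cap of host messages, with 6.56, 2.64 and 4.57 CPM on lean diet and 15.7, 32.8 and 14.9 CPM after 16 weeks (log2 2.14 ± 0.64 SE; edgeR adjusted p = 0.0515). Its groups did not overlap. Dtx3l, an E3 ligase that pairs with PARP9, gave 0.84 ± 0.25 (edgeR adjusted p = 0.052), Zbp1, the sensor of Z-form nucleic acids, 0.71 ± 0.22 (0.0576), and Irgm2 0.89 ± 0.28 (0.0695). None of the 4 Ifit, 2 Mx or 6 signalling and transcription genes passed. Isg15, a ubiquitin-like modifier named here after its values were seen, had 4.74 to 14.6 CPM on lean diet and 10.9 to 18.9 CPM after 16 weeks, with overlap.

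When 1 of the 6 libraries was left out at a time, 6 to 8 members passed. There were 6 without lean KO library 1, and 7 without lean KO library 2 or without any single 16-week KO library. The 7 without lean KO library 2 include members that did not pass with all libraries. Over all genes 373 to 514 passed in these fits, against 696 with no library left out. Ifih1, Oas1a and Ddx58 passed in all 6 of these fits, with edgeR adjusted p up to 0.0111, 0.0434 and 0.0439, and Igtp in none of them (0.0509 to 0.097). Ifi47 was lost without lean KO library 1 (0.0522) and Rtp4 without lean KO library 2 (0.063). Oas3 was lost without lean KO library 1 or 2 or 16-week KO library 3 (up to 0.0678). Gbp2 was lost without lean KO library 1 or 2 or 16-week KO library 1 or 2 (up to 0.115), Iigp1 without lean KO library 1 or 2 or 16-week KO library 1 or 3 (up to 0.133), and Irgm1 without lean KO library 2 or 3 or 16-week KO library 2 or 3 (up to 0.0867). Parp14 passed only without 16-week KO library 3, and Ly6a only without lean KO library 1, with edgeR adjusted p up to 0.147 and 0.137.

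Other genes moved in the same libraries. The summed CPM of the adipose Treg markers Pparg, Gata3, Il1rl1 and Klrg1 was 1960 ± 321 (SD, n = 3) in 16-week KO and 4270 ± 171 in lean KO Tregs, and each of the 4 fell. The summed endothelial markers were 156 ± 39.4 CPM against 55.8 ± 17.7 CPM. Pecam1, which T cells also express, rose from at most 73.3 CPM to between 109 and 141 CPM. Cldn5 had at most 1.09 CPM in lean KO and 37.7, 10.9 and 5.49 CPM in the 16-week libraries. Kdr had at most 0.457 CPM in lean KO and 13.5, 3.77 and 0.323 CPM in the 16-week libraries. Cdh5 had no count in any lean KO library and 0.969 to 2.64 CPM in the 16-week libraries. In 16-week KO library 1 the stromal markers summed to 105 CPM and the adipocyte markers to 52.7 CPM. The other libraries of that group had 2.64 and 3.55 CPM of the stromal markers, below the lean KO range of 4.23 to 5.48 CPM. Their adipocyte markers summed to at most 10.9 CPM. In every 16-week KO library the adipocyte sum was above the lean KO range of 2.11 to 4.01 CPM. Without 16-week KO library 1, 7 members passed. The summed plasmacytoid dendritic cell markers (Siglech, Ccr9 and Tcf4) were 93.6 to 174 CPM in lean KO and 28.8 to 59.6 CPM in 16-week KO Tregs, most of it from Ccr9, which is also a homing receptor of T cells and which fell by 1.94 on the log2 scale. Dendritic cell markers summed to 12.2 to 17.9 CPM and then 3.55 to 8.30 CPM, mostly Xcr1 (means 11.9 and 5.59 CPM). In bulk RNA, a change in the share of cells that express a gene and a change in RNA per cell cannot be told apart. The part of these markers in the result was not tested.

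**Figure D2:**
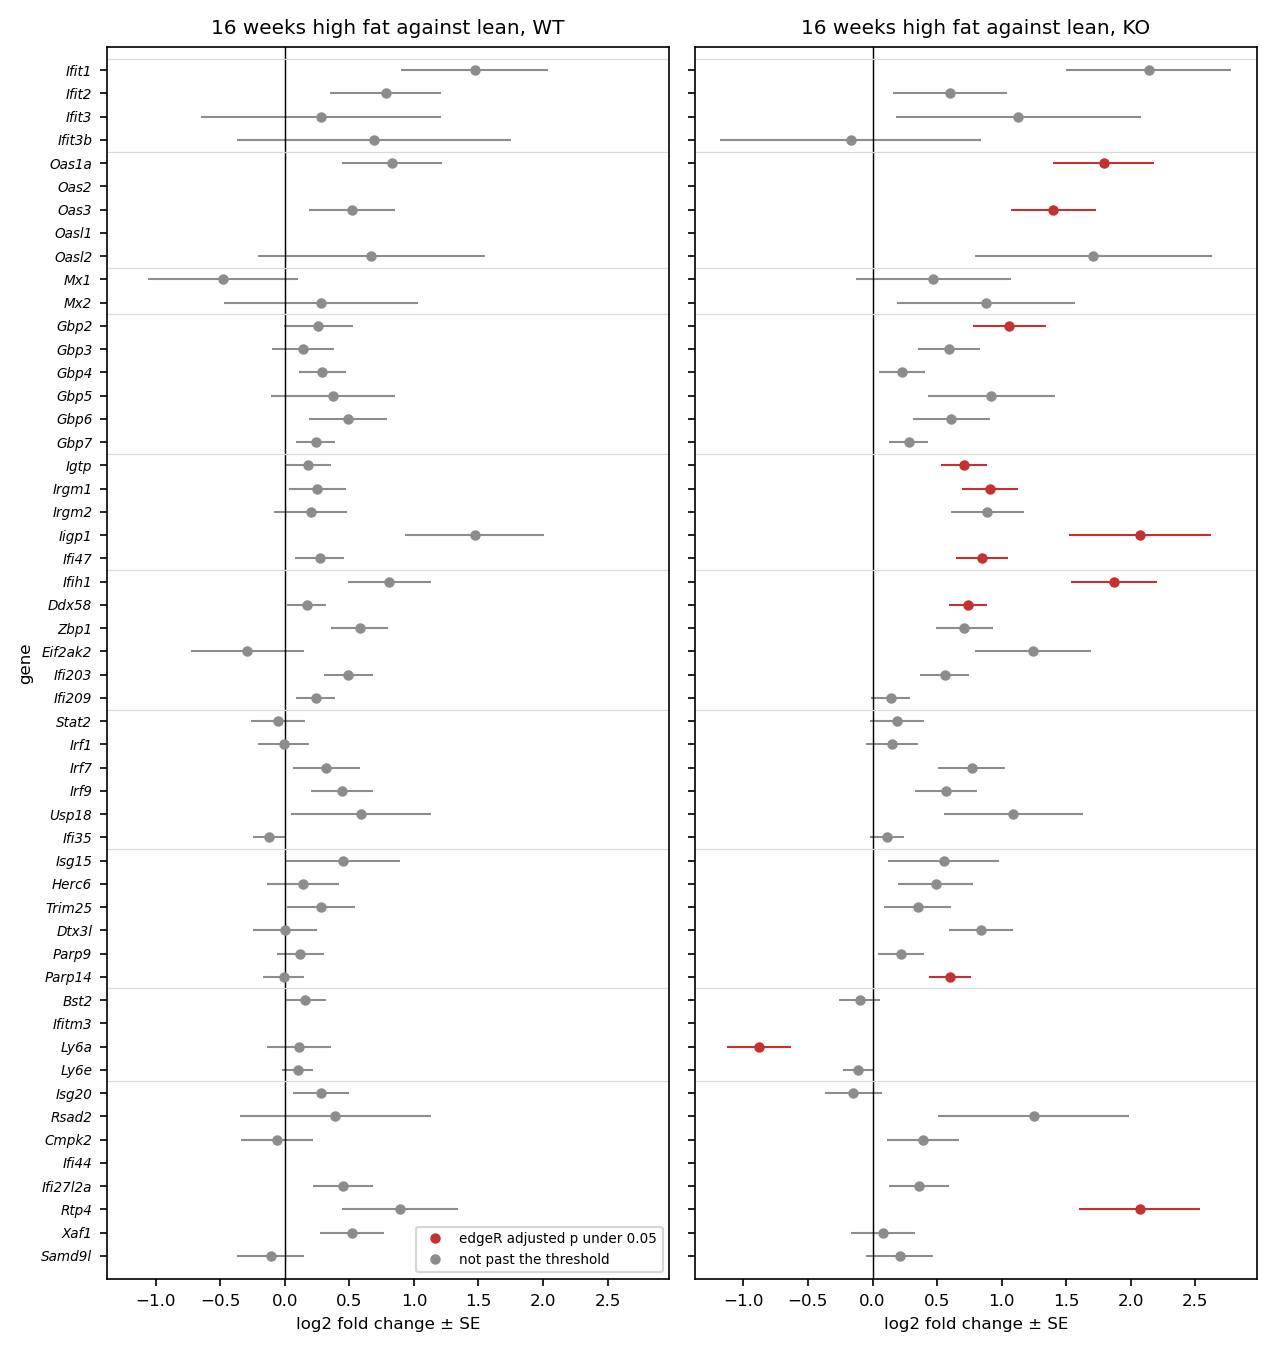
Log2 fold change of each tested member (points, with bars of 1 SE) after 16 weeks of high-fat diet against lean diet, in WT (left) and KO (right) Tregs; members without a point did not pass the filter. In KO Tregs 12 members are past the threshold and 43 of 48 lie right of 0, and in WT Tregs none is past it and 39 of 48 lie right of 0.

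In WT Tregs, no member passed for 16 weeks against lean diet by edgeR (0.0855% of all genes did, 0.0256% higher and 0.0598% lower) or by DESeq2, and 6 of 48 had an unadjusted p under 0.05 (8.76% of all genes). Of these 48 members, 39 were above 0 (50.2% of all genes), with a median log2 fold change of 0.28. Iigp1 had 6.55, 40.3 and 41.0 CPM in lean WT and 88.7, 39.2 and 117 CPM in 16-week WT Tregs (log2 1.47 ± 0.54 SE; edgeR adjusted p = 0.388). The groups overlapped, since 16-week WT library 2 lay below lean WT libraries 2 and 3. Zbp1 gave 0.58 ± 0.22 (edgeR adjusted p = 0.41) and Ifih1 0.81 ± 0.32 (0.44). Ifih1 levels were 10.8, 14.5 and 13.2 CPM on lean diet and 25.4, 18.7 and 23.4 CPM after 16 weeks, without overlap.

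The difference between KO and WT in this diet change was tested as an interaction, and it was called for no member and no gene (0.0% of 11698) by edgeR, nor for any member by DESeq2. Unadjusted p was under 0.05 for 8 of 48 members and for 8.49% of all genes. The smallest p-values were those of Ly6a (log2 -0.99 ± 0.35 SE; edgeR adjusted p = 0.432), Parp14 (0.61 ± 0.23; 0.458) and Ddx58 (0.57 ± 0.22; 0.466). Larger values with wider errors were those of Eif2ak2, the kinase PKR (1.54 ± 0.63; 0.501), Rtp4 (1.17 ± 0.65; 0.634) and Ifih1 (1.06 ± 0.45; 0.529). The change after 16 weeks of diet, which comes with greater age, is therefore not shown to differ between KO and WT Tregs.

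After 4 weeks of high-fat diet against lean diet, no member and no gene passed in WT Tregs (0.0%) or in KO Tregs (0.0%) by edgeR, and no member by DESeq2. Unadjusted p was under 0.05 for 8 members in WT (5.59% of all genes) and for 7 in KO (7.15%). The members above 0 were 41 of 48 in WT (49.1% of all genes; median 0.27) and 32 of 48 in KO (49.4%; median 0.14). Ifit1 had 3.74, 17.0 and 9.44 CPM in lean WT and 36, 28.0 and 56.3 CPM in 4-week WT Tregs (log2 1.95 ± 0.57 SE; edgeR adjusted p = 0.784). In KO Tregs its 4-week values were 5.11, 18.0 and 30.5 CPM against 2.64 to 6.56 CPM on lean diet, with overlap (1.91 ± 0.64; 0.525). Ly6a was lower after 4 weeks in KO Tregs, at 392, 433 and 396 CPM (log2 -0.86 ± 0.25 SE; edgeR adjusted p = 0.481), and in WT Tregs it ranged from 282 to 654 CPM. The interaction of genotype with 4 weeks of diet was called for no gene (0.0%) by edgeR, with 3 members at an unadjusted p under 0.05 (4.56% of all genes) and none called by DESeq2.

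Between 4 and 16 weeks of high-fat diet, Igtp rose in KO Tregs, the 1 member of 48 to pass (1.64% of all genes passed, 0.393% higher and 1.25% lower). It had 150, 177 and 174 CPM at 4 weeks and the 283 to 310 CPM given above at 16 weeks (log2 0.85 ± 0.18 SE; edgeR adjusted p = 0.0213). Ifi47 (0.75 ± 0.19; edgeR adjusted p = 0.0535) and Zbp1 (0.77 ± 0.21; 0.0748) followed, and 44 of 48 members were above 0 (49.9% of all genes). Igtp passed in 1 of the 6 fits that left out a library, the one without 4-week KO library 2; its edgeR adjusted p reached 0.116 in the other 5. In WT Tregs no member and no gene passed by edgeR (0.0%), no member had an unadjusted p under 0.05 (7.56% of all genes did), none passed by DESeq2, and 21 of 48 were above 0 (51.4%). The interaction was called for no gene by edgeR (0.0%) and for no member by DESeq2, with 10 members (6.70% of all genes) at an unadjusted p under 0.05, led by Igtp (0.96 ± 0.26; edgeR adjusted p = 0.577).

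KO Tregs were then set against WT Tregs within each diet. No member passed on lean diet (0.0427% of all genes did, 0.0256% higher and 0.0171% lower), at 4 weeks (0.0684%; 0.0427% and 0.0256%), at 16 weeks (0.0427%; 0.00855% and 0.0342%) or on average over the 3 diets (0.18%; 0.0855% and 0.094%) by edgeR, and none by DESeq2. The members above 0 were 15 of 48 on lean diet (49.6% of all genes), 9 at 4 weeks (50.2%), 40 at 16 weeks (50.3%) and 19 on average (50.2%). Unadjusted p was under 0.05 for 3, 8, 3 and 1 of the 48 members, and for 7.17%, 4.62%, 9.15% and 7.39% of all genes. On lean diet Parp14 had 76.8, 113 and 85.4 CPM in WT and 55.8, 69.8 and 65.7 CPM in KO Tregs, without overlap (log2 -0.53 ± 0.16 SE; edgeR adjusted p = 0.428). At 4 weeks Mx1, a gene of the dynamin-like GTPase family, had 18.8, 11.3 and 19.4 CPM in WT Tregs. It had 1.10, 8.05 and 7.53 CPM in KO, also without overlap (log2 -1.54 ± 0.60 SE; edgeR adjusted p = 0.999). Igtp had 174, 285 and 319 CPM in WT, of which the first lay within the KO range (-0.62 ± 0.18; 0.893). At 16 weeks Oas3 had 45.5, 27.4 and 31.9 CPM in WT against 48.8 to 60.7 CPM in KO (0.68 ± 0.31; 0.526). None of these 4 members passed. They were picked by smallest p, so nothing is drawn from a lack of overlap.

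Libraries of 1 group differed from each other more in the type I class than in the interferon-gamma class. The within-group standard deviation of log2 CPM, pooled over the 8 groups, had a median of 0.96 over 10 type I class members (0.52 to 1.44) and of 0.38 over the 9 interferon-gamma class members (0.18 to 0.65). All 51 members that passed the filter had a median of 0.37, and all 12523 genes 0.35. The type I class is also the lower in counts, and spread rises as counts fall; that part was not tested. The widest members were Ifit3 (1.44), Ifitm3 (1.12), Iigp1 (1.09), Ifit3b (1.07) and Oas2 (1.05). Of these only Iigp1 had a mean over 10 CPM. The tightest were Ifi35 (0.12), Ly6e (0.15), Ifi209 and Bst2 (0.17 each) and Gbp7 (0.18).

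**Figure D3:**
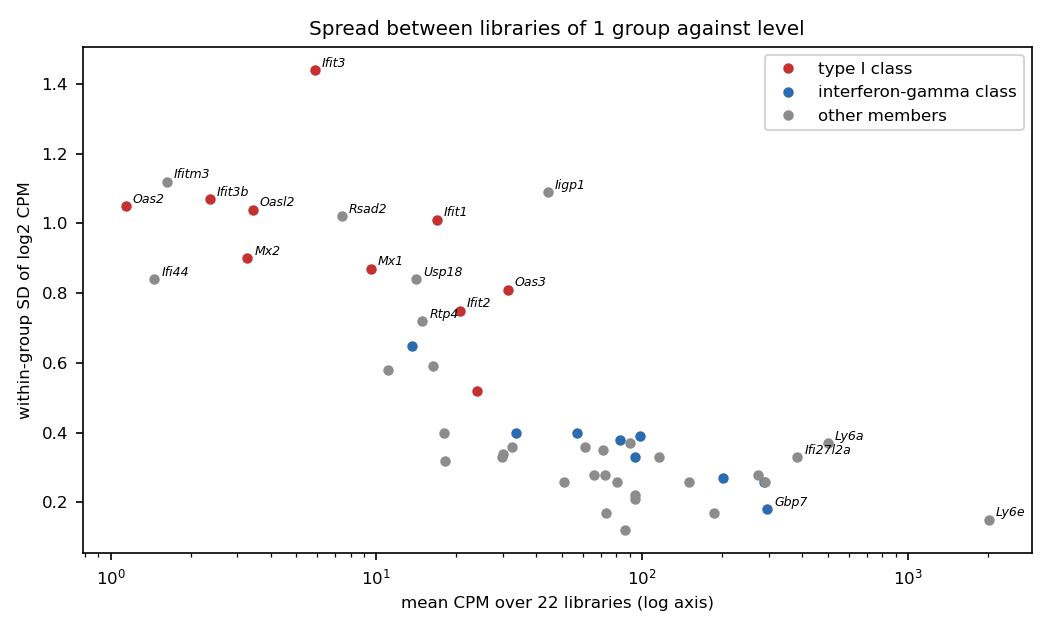
Within-group standard deviation of log2 CPM (vertical axis) against mean CPM over 22 libraries (horizontal, log axis) for 51 members, coloured by class. The type I class members lie between 0.52 and 1.44, the interferon-gamma class members between 0.18 and 0.65, and Iigp1 stands at 1.09 with a mean of 44.3 CPM.

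Whole libraries stood high or low. Lean WT library 1 had the lowest value of its group in 39 of 51 members (35.2% of all genes), 4-week KO library 1 also in 39 (34.4%), 16-week WT library 2 in 38 (33.7%) and 4-week WT library 1 in 35 (32.7%). At the top, 4-week KO library 3 and 16-week WT library 3 were each the highest of their groups in 30 members (32.2% and 31.8% of all genes). The mean log2 CPM over the type I class was 1.42 in lean WT library 1 and 3.04 and 2.61 in the other lean WT libraries. In 16-week WT library 2 it was 1.98, beside 3.18 and 3.51 in the others. In the interferon-gamma class the same low libraries had 5.88 beside 6.71 and 6.67, and 6.49 beside 6.84 and 6.89. Over the 18 diet libraries, with group means removed, the levels of both classes moved together (Pearson r = 0.73, Spearman rho = 0.70, n = 18; r = 0.57 without the 2 libraries farthest out). These values share their library and its scaling, and no test is given.

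**Figure D4:**
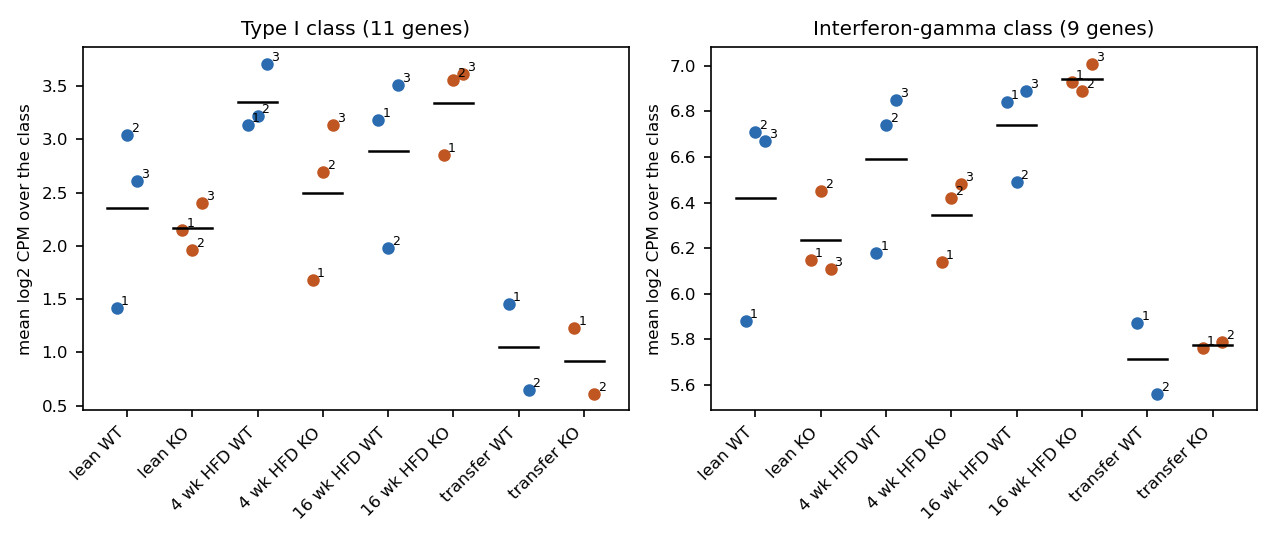
Mean log2 CPM over the 11 genes of the type I class (left) and the 9 genes of the interferon-gamma class (right) in each library (points, numbered by replicate; blue WT, orange KO), with the group mean as a line; neither axis starts at 0. The type I class spans 0.61 to 3.71 and the interferon-gamma class 5.56 to 7.01, and the transfer libraries are among the lowest in both.

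The same libraries differed in adipose Treg markers. Lean WT library 1, low in both classes, had a summed Pparg, Gata3, Il1rl1 and Klrg1 level of 4430 CPM, beside 2370 and 3020 CPM in the other lean WT libraries, and 16-week WT library 2 had 4250 CPM beside 1940 and 2430 CPM. Over the 18 diet libraries with group means removed, that sum (log2) and the type I class had r = -0.71 and rho = -0.73 (n = 18), and r = -0.45 without the 2 libraries farthest out. With the interferon-gamma class the values were r = -0.66, rho = -0.63 and r = -0.45. This relation was looked at after the values were seen. It is given as a description, with no test, and its part in the comparisons above was not tested.

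The type I class had the larger median in most comparisons. For 16 weeks against lean diet in KO Tregs, 2 of 9 tested type I class members rose (median log2 fold change 1.13) and 3 of 9 interferon-gamma class members rose (median 0.71). In WT Tregs the medians were 0.67 and 0.25, with none called. They were 0.15 and 0.07 without lean WT library 1, and ran up to 1.01 and 0.37 without lean WT library 2. For 4 weeks against lean diet in WT Tregs they were 0.91 and 0.16, and 0.52 and -0.10 without lean WT library 1, so that the interferon-gamma class median turned sign. For KO against WT they were -0.29 and -0.19 on lean diet, -0.70 and -0.22 at 4 weeks and 0.32 and 0.27 at 16 weeks. With single libraries left out, the first pair ran from -0.85 (without lean KO library 3) to -0.01 (without lean WT library 2) and from -0.38 (without lean WT library 1) to -0.06 (without lean WT library 2). The second pair ran from -1.75 (without 4-week KO library 3) to -0.24 (without 4-week KO library 1) and from -0.37 (without 4-week WT library 1) to -0.08 (without 4-week WT library 2). Set against the spread, the type I class level had a within-group standard deviation of 0.60 and the interferon-gamma class level one of 0.26. At 16 weeks the type I class median for KO against WT ran from -0.20 (without 16-week WT library 2) to 0.89 (without 16-week WT library 3), and the interferon-gamma class median from 0.15 (without 16-week WT library 2) to 0.34 (without 16-week WT library 1). No test of the difference between the classes was made.

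Tregs recovered after transfer, set beside resident lean Tregs, had the lowest levels of most members. In WT cells, 14 of the 51 tested members fell and none rose (5.84% of 12523 genes were lower and 4.63% higher), and 43 had a log2 fold change below 0. In KO cells, 5 of 51 fell and none rose (2.14% lower, 1.21% higher), and 39 were below 0. Gbp3, Igtp, Iigp1 and Irf1 fell in WT and in KO cells. Ddx58, Dtx3l, Ifi47, Ifih1, Irf7, Irgm2, Oas3, Oasl2, Rtp4 and Usp18 passed in WT alone and Ly6a in KO alone; whether the 2 genotypes differ in this was not tested. The WT and KO comparisons use separate lean and transfer libraries but share 1 estimate of spread.

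Iigp1 had 6.55, 40.3 and 41.0 CPM in lean WT Tregs and 3.07 and 0.539 CPM after transfer (log2 -4.07 ± 0.95 SE; edgeR adjusted p = 0.00812). In KO cells it had 14.2 to 33.8 CPM and then 4.93 and 0 CPM (-3.36 ± 0.91; 0.0434). Both genotypes were thus near the limit of detection in a transfer library, so the size of these changes is poorly bounded. Gbp3 was better measured, with 59.0, 115 and 97.2 CPM in lean WT and 39.5 and 20.1 CPM after transfer (-1.61 ± 0.31; edgeR adjusted p = 0.00196). In KO cells it had 71.5, 84.0 and 88.6 CPM and then 28.1 and 32.4 CPM (-1.42 ± 0.31; 0.0106), also without overlap. Igtp had 174, 209 and 245 CPM in lean WT and 113 and 83.4 CPM after transfer (-1.10 ± 0.22; edgeR adjusted p = 0.00309), and 108 and 75.5 CPM in transferred KO cells (-1.0 ± 0.22; 0.0136).

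Oasl2 had 0.468, 7.06 and 2.36 CPM in lean WT Tregs and no count in either transferred WT library (edgeR adjusted p = 0.0239). Against 3 counts per library that is at least 5.50-fold below the lean mean of 3.29 CPM. Lean WT library 1 was itself under 3 counts, so the bound holds for the mean and not for each library. Rtp4 had 5.15, 15.8 and 16.5 CPM and then 1.76 and 0 CPM (log2 -3.88 ± 0.80 SE; edgeR adjusted p = 0.0033), without overlap. Usp18, the protease that removes ISG15 and damps type I signalling, had 6.55, 13.7 and 16.0 CPM and then 1.76 and 2.16 CPM (-2.60 ± 0.78; 0.0367). The regulators Irf7 (-1.07 ± 0.30) and Irf1 (-0.75 ± 0.22) were lower by less (edgeR adjusted p = 0.025 and 0.034). The other effectors that passed were Oas3 (-2.03), Ifih1 (-1.44), Irgm2 (-1.06), Ifi47 (-1.02), Dtx3l (-0.95) and Ddx58 (-0.80).

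The median log2 fold change over the 10 tested type I class members was -1.89 in WT and -1.88 in KO cells. With members that had no count after transfer set at their bound it was -1.58 and -1.88. For the 9 interferon-gamma class members it was -0.84 and -0.59, and for all 51 members -0.82 and -0.47, against -0.03 and 0.00 for all genes. Not all members were lower: in WT cells Isg20, an RNA exonuclease gene, gave 0.42 ± 0.23, Ly6e 0.39 ± 0.13 and Bst2 0.31 ± 0.17, none of them past the threshold. Fewer members passed without lean WT library 2 or 3 (6 in WT cells) and without lean KO library 2 or 3 (3 in KO cells). They were also fewer whenever a transferred library was left out. Such a fit holds 1 library in that group, so its calls are not counted here. All genes were not counted beside these fits, so members are not compared with all genes in this. With any single library left out, the median over all members lay between -1.02 and -0.62 in WT cells. In KO cells it lay between -0.51 and -0.39. The summed adipose Treg markers were 6440 ± 28.6 CPM (SD, n = 2) in transferred WT and 6430 ± 94.0 CPM in transferred KO cells, against 3270 ± 1050 and 4270 ± 171 CPM in lean cells. Macrophage and monocyte markers summed to 15.4 to 22.2 CPM in lean WT and 6.11 to 8.56 CPM in transferred WT cells. In KO cells they summed to 18.2 to 27.5 CPM and 11.6 to 13.7 CPM. Most of this difference was Ly6c2, with means of 10.8 and 0.0899 CPM in WT and 9.54 and 0 CPM in KO cells. Cd68 had means of 5.07 and 5.17 CPM in WT and 10.2 and 8.98 CPM in KO cells. In WT cells B cell markers summed to 10.8 to 16.5 CPM and then 3.96 to 6.15 CPM, mostly Cd79b (means 11.9 and 2.79 CPM). Endothelial markers summed to 60.6 to 75.4 CPM and then 37.1 to 42.6 CPM, mostly Pecam1 (means 68.5 and 38.6 CPM). Plasmacytoid dendritic cell markers, mostly Ccr9, went from 41.9 to 98.3 CPM up to 223 to 341 CPM in WT cells, while Siglech was at most 0.18 CPM after transfer. In KO cells these last 3 sums overlapped between lean and transferred cells. The part of these markers in the result was not tested.

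Among transferred cells alone, KO against WT gave no member past the threshold by edgeR (0.171% of 11715 genes passed) and 3 of 45 at an unadjusted p under 0.05 (6.53% of all genes). DESeq2 called 1, Ly6a. Ly6a had 384 and 557 CPM in WT and 295 and 314 CPM in KO cells (log2 -0.64 ± 0.17 SE; edgeR adjusted p = 0.466). Rsad2 (viperin, which makes a chain-ending nucleotide) had 1.54 and 1.26 CPM in WT and 5.57 and 19.8 CPM in KO (3.15 ± 0.79; 0.408), and Samd9l 42.8 and 46.8 against 70.1 and 77.6 CPM (0.71 ± 0.20; 0.494). None of these 3 overlapped between genotypes, but they were picked by smallest p from groups of 2 libraries. The share of all genes without overlap was not computed, so nothing is drawn from this.

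The rest of the pathway was read from a list of 41 ligands, receptors, kinases, STATs, inhibitors, other IRFs and sensing genes, of which 29 were tested in the diet libraries. For 16 weeks against lean diet in KO Tregs 3 rose and 2 fell (2.36% of all genes were higher and 3.59% lower), with a median log2 fold change of 0.21. Sting1, the adaptor through which DNA sensing induces type I interferon, had 166, 165 and 138 CPM on lean diet and 267, 259 and 259 CPM after 16 weeks (log2 0.74 ± 0.13 SE; edgeR adjusted p = 0.00129), and it also rose from 4 to 16 weeks (0.60; 0.0169). Its groups did not overlap. Ptpn6, the phosphatase SHP-1, rose by 0.66 and Ikbke, a kinase that phosphorylates IRF3 and IRF7, by 0.68. Socs1, the inhibitor of JAK kinases, fell by 0.61 (SE 0.14; edgeR adjusted p = 0.0128), from 91.1 to 107 CPM down to 61.1 to 71.6 CPM. Irf4, a factor of effector Tregs, fell by 1.34, and by 0.91 from 4 to 16 weeks. Sting1 gave 0.44 ± 0.13 in WT Tregs (edgeR adjusted p = 0.207), with an interaction of 0.30 ± 0.18 (0.667).

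In transferred WT cells 2 of 29 pathway genes rose and 5 fell, beside 4.63% of all genes higher and 5.84% lower. Ifng, the gene of interferon-gamma itself, had 15, 32.8 and 32.6 CPM in lean WT Tregs and 1.76 and 0.36 CPM after transfer (log2 -4.68 ± 0.64 SE; edgeR adjusted p = 7.51e-05). In KO cells, where 1 pathway gene rose and 1 fell, it had 16.9 to 29.9 CPM and then no count in either library, at least 35.4-fold lower against 3 counts per library (edgeR adjusted p = 1.31e-05). No transfer library reached the lean range in either genotype. Socs1 rose by 0.91 in each genotype, to 174 and 208 CPM in WT and 200 and 180 CPM in KO cells (edgeR adjusted p = 0.000333 and 0.00063). Ptpn2, a phosphatase that damps cytokine signalling, also rose in WT cells (0.79), and Ifnar2 (-0.53), Jak1 (-0.44) and Ikbke (-0.81) fell. Tlr7 passed with no count in either transferred WT library, at least 3.72-fold lower, though lean WT library 1 also had none. Ifnb1 had no count in any of the 22 libraries.

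**Figure D5:**
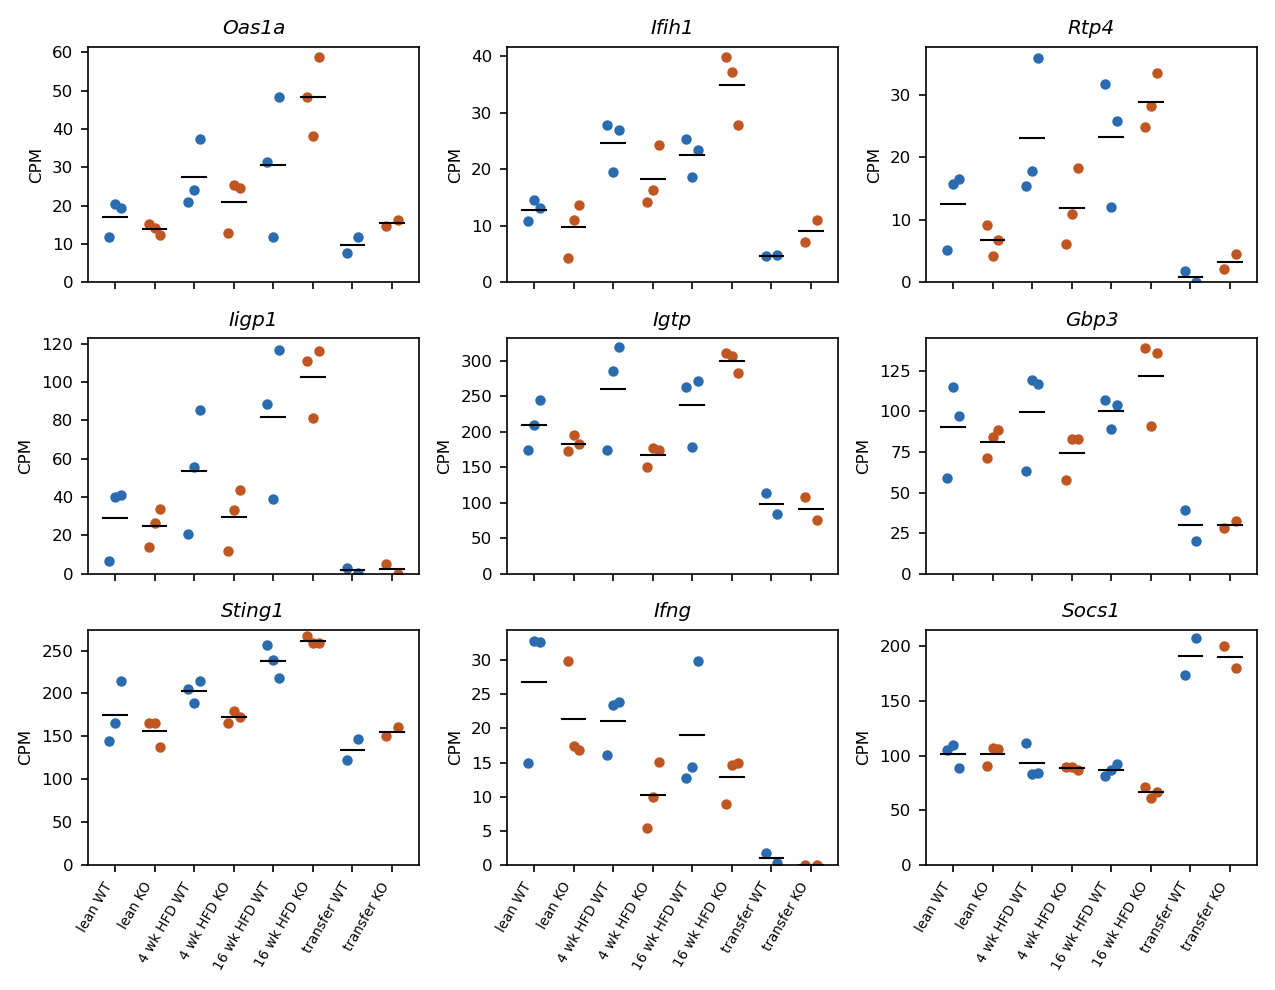
CPM (vertical axes, from 0) in each library for 6 members and for Sting1, Ifng and Socs1, by group (blue WT, orange KO; lines are group means). Oas1a, Ifih1, Rtp4, Iigp1, Igtp, Gbp3 and Sting1 have their highest group mean in 16-week KO, transferred KO cells keep Oas1a at the lean KO level (14.6 and 16.2 CPM), Ifng is at or near 0 after transfer, and Socs1 is highest there.

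Of 10 antigen presentation genes that interferon-gamma is known to induce, 2 rose in 16-week against lean KO Tregs, beside 2.36% of all genes. Psmb10, a subunit of the immunoproteasome, had 73.3, 74.0 and 67.6 CPM and then 162, 123 and 130 CPM (log2 0.95 ± 0.22 SE; edgeR adjusted p = 0.0124). Cd274, the ligand PD-L1, had 60.5, 62.4 and 51.1 CPM and then 95.4, 106 and 95.3 CPM (0.77 ± 0.21; 0.0337). Neither gene overlapped between the groups. In transferred WT cells Psmb10 (-0.90) and Psmb9 (-0.48) fell and B2m, the light chain of MHC class I, rose (0.57; edgeR adjusted p = 0.000702), as it did in KO cells (0.47; 0.00815). No gene of this list or of the pathway list passed by edgeR for KO against WT in any diet, on average or after transfer, for 4 weeks or, in WT Tregs, 16 weeks against lean diet, or in an interaction.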

How the data were processed

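RNA-seq read counts per gene were deposited by the authors as 1 table of 22 libraries. Per the submitters' processing notes they used STAR (2.7.3a), the mouse build mm10 and featureCounts; no further settings are recorded there. Per the labels' protocols, polyadenylated RNA from 1000 cells was amplified, cut with a transposon and read as 38-base pairs, and no molecular identifier is named, so counts and their limits cover counting error only.

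From the counts, CPM after TMM scaling and edgeR (4.0.16, R 4.3.3) quasi-likelihood tests were computed, with filterByExpr at a minimum count of 10, group means and Benjamini-Hochberg adjustment over all genes tested (threshold 0.05). The 18 diet libraries, the 4 transfer libraries and all 22 (transfer against lean) were fitted separately. Log2 CPM used a prior count of 2. A standard error is the log2 fold change divided by the root of its F value. The script was tested on simulated data.

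Members and lists were chosen with earlier results of these data known. Members named are those called in any comparison, those with the smallest p per comparison and direction, the widest and tightest within groups, and the highest per role; pathway and antigen presentation genes are named when called. Others were named after their values were seen. Alternatives were RLE scaling, DESeq2 (1.42.0), no filter, a replicate block, the compared groups alone, each library left out, wider classes and a prior count of 0.5. Exon lengths came from GENCODE M21. One gene of the pathway list is not reported here and was left out of the list's counts.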

Additional observations from a re-analysis of the deposited data

How the results depend on the processing

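Counts are of members past the threshold. Counts over all genes that moved follow below as numbers, not shares, so members are not compared with all genes here. With no filter on low counts they were 1 for KO against WT at 4 weeks, at 16 weeks and on average, and 2 after transfer. They were 1 in WT and 2 in KO for 4 weeks against lean, 2 in WT and 21 in KO for 16 weeks against lean, 11 for 16 against 4 weeks in KO, 1 and 2 for the interactions with 16 weeks (against lean and against 4 weeks), and 10 for transfer in KO. With only the groups compared they were 1 for 4 weeks and 19 for 16 weeks against lean in KO, and 8 for 16 against 4 weeks in KO. Over all genes these 3 fits gave 15, 897 and 376, beside 0, 696 and 192 in the main fit. DESeq2 gave 3 for 16 against 4 weeks in KO and 1 for KO against WT after transfer. The cause was not tested.

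With a replicate block the counts were 3 for 16 against 4 weeks in KO and 3 for transfer in KO, with 193 and 336 over all genes. The replicate numbers do not pair the libraries (correlations of same-numbered libraries -0.04 to 0.102).

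With single libraries left out, counts ran from 6 to 8 for 16 weeks against lean in KO, 0 to 2 for 16 against 4 weeks in KO, 0 to 18 for transfer in WT and 0 to 5 in KO. Type I class medians ran from -1.75 to -0.24 for KO against WT at 4 weeks, -1.16 to -0.07 for the 4-week interaction, -0.0 (reversed, without lean WT library 2) to 1.08 for the 16-week one, -1.3 to 0.49 for KO against WT after transfer (reversed without transferred KO library 1, and at -0.87 without WT library 2), -5.32 to -1.48 for transfer in WT and -2.65 to -1.62 in KO (-1.15 with the wider class). Interferon-gamma class medians ran from 0.23 to 0.67 for the 16-week interaction and -1.11 to -0.59 for transfer in WT.

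Counts over all genes moved as follows. For KO against WT, 5 on lean diet became 135 without the filter, 24 by DESeq2 and 10 with only the groups compared; 8 at 4 weeks became 75 without the filter; 5 at 16 weeks became 428, 47 and 50; 21 on average became 273 and 38 by DESeq2; and 20 after transfer became 102, 61 by DESeq2 and 40 with the block. For 16 weeks against lean, 10 in WT became 178, 82 and 1, and 696 in KO became 1085 without the filter. For 16 against 4 weeks, 192 in KO became 638, 346 and 376, and 0 in WT became 96 and 27 by DESeq2. For 4 weeks against lean, 0 became 40 in WT without the filter, and 112, 21 and 15 in KO. The interactions went from 0 to 22, 258 and 211 without the filter, and to 26 and 1 by DESeq2 for those with 16 weeks. Transfer in KO went from 419 to 698 without the filter and 640 by DESeq2.

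Fits of the compared groups alone were not run for the diet average, and for KO against WT after transfer they are the fit reported. At this depth 3 counts were worth up to 1.59 CPM, and Oas2, Oasl1, Ifi44 and Ifitm3 failed the filter in the diet libraries.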
